A study of Arabidopsis thaliana with 18 samples.

Results

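The 100 genes described here are those whose transcript level varied least over 18 seedling libraries. They were chosen from 33602 loci in 2 steps. The 6343 nuclear loci with a mean of at least 20 RPKM (read counts divided by the length of the gene and by the size of the library) were candidates. Their RPKM were rescaled so that each library summed to 1000000, a scale called TPM here, and the 100 candidates with the lowest SD/mean over the 18 libraries were taken. Because every library entered that choice, the levels below are descriptions, and no test of the 100 genes against other genes is given.

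The libraries hold poly(A) RNA of whole Arabidopsis thaliana seedlings and were made to ask how 2 mutants and the wild type differ at control and at low water potential. The groups were ahl10-1 at stress and at control, rrp6l1-2 at stress and at control, and wild type Col-0 (WT) at stress and at control, with 3 libraries each that the series describes as independent biological experiments. Seedlings of all groups grew under continuous light on medium without added sugar for 7 days. Stress seedlings then went to agar carrying PEG-8000 at a water potential of -0.7 MPa, whereas control seedlings stayed at -0.25 MPa, and all were collected 96 h later at an age of 11 days. AHL10 is an AT-hook DNA-binding protein and RRP6L1 is related to an exoribonuclease of the nuclear exosome. Each mutant is a single allele, so an effect of the gene and one of the line cannot be told apart.

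A gene whose transcript level hardly moves between samples can serve as a yardstick: in RT-qPCR, the level of a gene of interest is read against such reference genes. Actins, tubulins, ubiquitins and glyceraldehyde-3-phosphate dehydrogenase (GAPDH) have long filled that role in plants. RNA-seq has no such outside yardstick either, since each level is a share of the library, and a gene can look even on one way of scaling libraries and not on another.

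The libraries held between 58.0 M and 68.6 M reads assigned to genes, where M stands for 1000000. P5CS1, which makes the osmoprotectant proline and is a standard marker of low water potential, averaged 351 ± 32.2 TPM in WT stress and 34.4 ± 5.10 TPM in WT control seedlings (SD, n = 3 each), so the treatment is visible in the files. AHL10 transcript averaged 21.6 ± 2.69 TPM in ahl10-1 stress and 47.8 ± 1.01 TPM in WT stress seedlings, and RRP6L1 transcript 3.11 ± 0.806 TPM in rrp6l1-2 stress and 18.1 ± 0.368 TPM in WT stress seedlings (SD, n = 3 each). The shoot genes CAB1 and RBCS1A had medians of 14720 and 10943 TPM over the 18 libraries, and the root hair gene EXPA7 a median of 9.49 TPM, so both organs were represented. In such mixed tissue, fewer cells of a type and less RNA per cell cannot be told apart.

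The SD/mean of the 100 genes ran from 2.67% to 4.61% with a median of 4.09%, against a median of 11.4% over all candidates. Sequencing depth itself set part of this spread: counting of reads alone would give the 100 genes a median SD/mean of 1.48%, and the candidates 1.61%. Counting made up a median of 13.6% of the variance of the 100 genes, against 1.84% for the candidates. The rule chose genes of low total variance, which raises that share. The highest library was a median of 1.16 times the lowest for the 100 genes, against 1.49 times for the candidates. Of the 1800 values of these genes, 10 lay more than 10% from the gene's own mean, and 90 genes had no such value. They were spread over 6 libraries: 3 were in rrp6l1-2 control 3, 2 each in WT stress 1 and WT control 3, and 1 each in ahl10-1 stress 2, rrp6l1-2 stress 2 and rrp6l1-2 control 2. The farthest above the mean was SNF7.2, of the ESCRT sorting machinery, at 11.4% in ahl10-1 stress 2, and the farthest below was AT2G16860 at -11.4% in rrp6l1-2 control 3. CUE1, which carries phosphoenolpyruvate into plastids, lay 10.4% above its mean in WT control 3, and MAP65-1, which bundles microtubules, at -10.2% in rrp6l1-2 control 3.

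**Figure D1:**
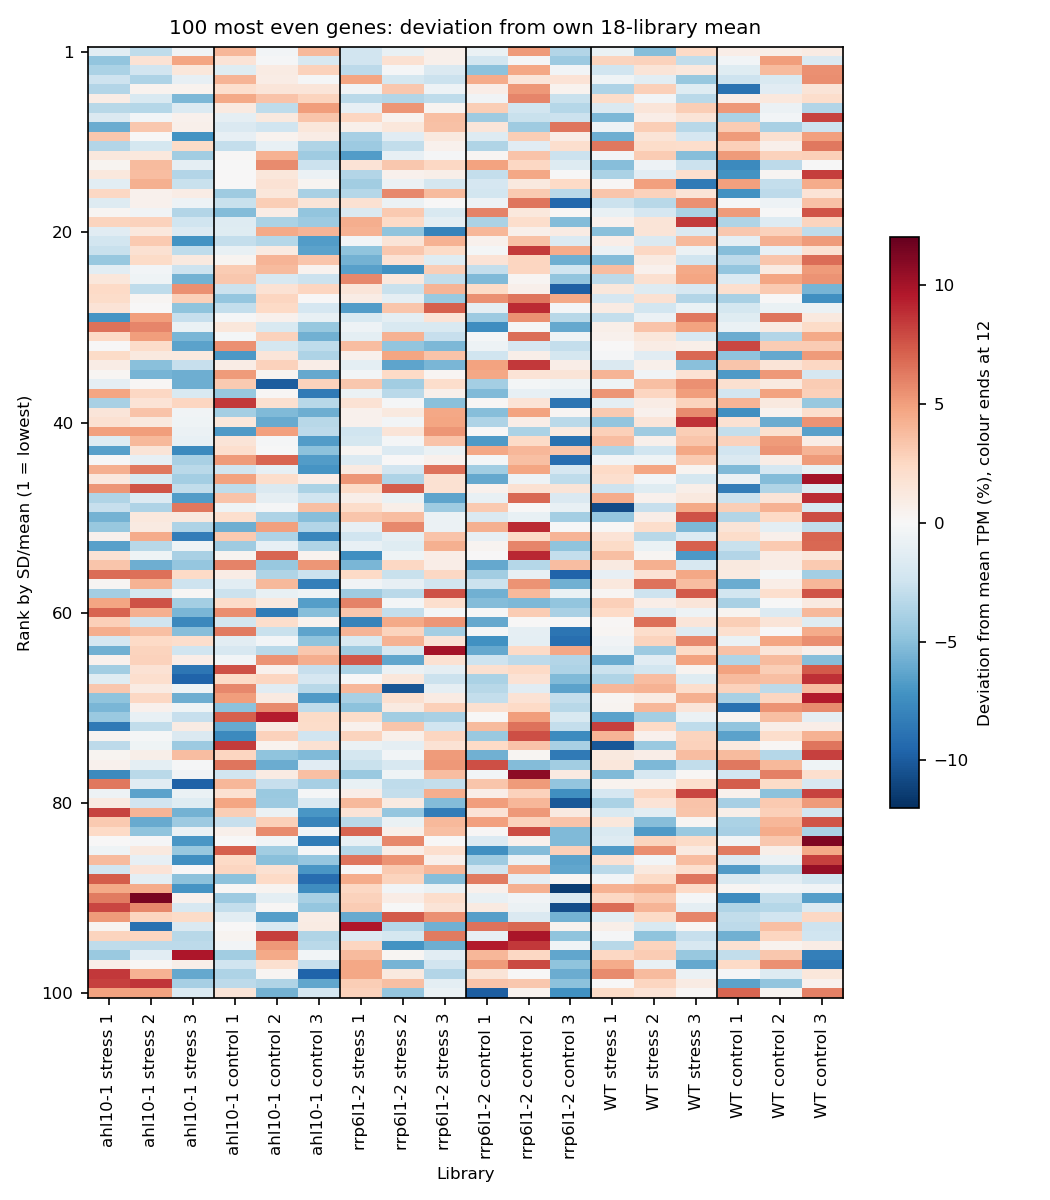
Deviation of each of the 100 genes (rows, in order of SD/mean) from its own mean TPM in each of the 18 libraries (columns, 3 per group), in percent, red above and blue below the mean. Of the 1800 values, 10 exceed 10% in either direction.

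The line between members and other genes was a fine one. The last members by rank were AT4G25370 with an SD/mean of 4.56%, AT2G35450 with 4.57%, the sulfite oxidase gene SOX with 4.58%, the synaptotagmin gene SYTA with 4.60% and AT5G32440 with 4.61%. The genes just outside were AT1G21080 with 4.62%, MEE4 with 4.62%, the exocyst gene SEC5A with 4.63%, NKS1 with 4.63% and AT4G31170 with 4.64%. The last 5 inside and the first 5 outside thus spanned less than 0.1 percentage points.

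The most even gene was AT4G26480 (chromosome 4, 13372422 to 13376332, minus strand), which encodes an RNA-binding protein with a KH domain. It had 43.2, 42.4 and 43.6 TPM in ahl10-1 stress, and 45.5, 43.6 and 45.5 TPM in ahl10-1 control seedlings. It had 42.7, 43.4 and 44.0 TPM in rrp6l1-2 stress, and 43.4, 46.0 and 42.2 TPM in rrp6l1-2 control seedlings. In WT, it had 43.4, 41.5 and 44.8 TPM at stress, and 44.1, 44.1 and 44.2 TPM at control. The ranges of stress and control libraries overlapped in rrp6l1-2 and in WT, while in ahl10-1 the stress libraries lay just below the control libraries. The gene had a mean of 3085 reads per library.

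ROPGEF1 (chromosome 4, 17986384 to 17988869, plus strand), second by rank, activates ROP small GTPases, the plant switches of polar growth. It had 67.7, 72.3 and 74.5 TPM in ahl10-1 stress and 72.3, 71.0 and 69.8 TPM in ahl10-1 control seedlings, and its other libraries lay between 68.0 and 74.7 TPM. Its lowest and highest values came from different genotypes and treatments.

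The 250 bases upstream of the annotated start of AT4G26480 and ROPGEF1, the most even genes, are shown with those of GAPC2 and GAPC1, a gene pair described below of which GAPC2 is a member and GAPC1 is not. They are read 5′ to 3′ on the gene's strand from TAIR10.1 with its RefSeq annotation, at chr4:13376333-13376582 (minus strand), chr4:17986134-17986383 (plus strand), chr1:4610879-4611128 (minus strand) and chr3:1080692-1080941 (plus strand). Capitals mark the motifs searched for, which were the TATA box TATAAA on the gene's strand and, on both strands, the telo box AAACCCTA, the site II element TGGGCC, the G-box CACGTG and the DRE core CCGAC of drought-responsive promoters.

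AT4G26480: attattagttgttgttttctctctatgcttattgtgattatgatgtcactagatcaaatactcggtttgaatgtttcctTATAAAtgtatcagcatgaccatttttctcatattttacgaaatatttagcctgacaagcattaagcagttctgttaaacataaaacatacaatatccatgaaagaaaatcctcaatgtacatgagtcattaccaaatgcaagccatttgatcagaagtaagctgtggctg

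ROPGEF1: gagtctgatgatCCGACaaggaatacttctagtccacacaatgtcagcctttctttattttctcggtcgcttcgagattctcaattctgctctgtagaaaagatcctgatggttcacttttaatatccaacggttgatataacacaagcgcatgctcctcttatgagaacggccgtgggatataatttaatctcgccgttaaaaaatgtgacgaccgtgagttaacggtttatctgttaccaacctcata

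GAPC2: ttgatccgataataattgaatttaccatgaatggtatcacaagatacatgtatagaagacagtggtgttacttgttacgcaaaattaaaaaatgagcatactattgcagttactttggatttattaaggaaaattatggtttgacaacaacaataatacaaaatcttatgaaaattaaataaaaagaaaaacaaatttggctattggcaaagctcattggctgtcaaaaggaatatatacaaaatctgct

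GAPC1: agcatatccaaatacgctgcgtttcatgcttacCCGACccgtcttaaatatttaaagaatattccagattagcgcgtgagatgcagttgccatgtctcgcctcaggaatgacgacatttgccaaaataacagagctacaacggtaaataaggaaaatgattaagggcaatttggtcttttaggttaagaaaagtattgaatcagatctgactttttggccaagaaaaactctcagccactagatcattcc

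AT4G26480 held the letters TATAAA 171 bases before the annotated start, and whether they act as a TATA box was not tested. ROPGEF1 and GAPC1 each held a DRE core, and GAPC2 held none of the motifs. Over the 100 genes, 23.0% of the windows held the TATA box, against 31.0% of 6264 candidates and 32.9% of 27443 protein-coding nuclear genes. The DRE core was in 12 of the members' 100 windows, in 12.9% of the candidates' and in 11.97% of all. The G-box was in 10 of the members' windows, 7.85% of the candidates' and 6.49% of all. The site II element was in 15 of the members' windows, 19.8% of the candidates' and 13.7% of all, and the telo box in 5 of the members' windows, 3.72% of the candidates' and 4.49% of all. These shares describe letters in a window, and say nothing of whether a factor binds there.

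RNA-binding proteins supplied 8 of the 100 genes out of 198 candidates of that class, where 1.58% of all candidates were members. Among them were AT5G19350 and AT4G14300, both with an RNA recognition motif, at SD/mean values of 2.94% and 3.27%. AT5G19350 ranged from 37.9 to 42.1 TPM with a median of 39.8 TPM. The poly(A)-binding protein gene PAB2, whose product coats the tails of mRNAs, ranged from 281 to 321 TPM with a median of 295 TPM. PTB3, a polypyrimidine tract-binding splicing factor, and RBP45B ranked 63 and 77. These classes were assigned by words in the product name, so each share is a description.

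Genes of ubiquitin and ubiquitin-like conjugation numbered 6 among 166 candidates. RCE1, the enzyme that passes the ubiquitin-like RUB1 to cullins, ranged from 121 to 136 TPM with a median of 130 TPM. UBC4, a ubiquitin-conjugating enzyme, had an SD/mean of 3.54%, and PUB13, a U-box ubiquitin ligase, 4.21%. None of 42 candidate genes of the proteasome, which degrades the tagged proteins, was a member, and the best of them ranked 363.

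Membrane traffic gave 6 members out of 146 candidates. VPS46.1, an ESCRT protein that helps sort membrane proteins for the vacuole, ranged from 40.6 to 45.9 TPM with a median of 44.0 TPM. SEC10, a subunit of the exocyst that tethers vesicles to the plasma membrane, ranged from 42.5 to 49.1 TPM with a median of 45.5 TPM, and RER1B, which returns proteins to the endoplasmic reticulum, ranked 46. Of 6 exocyst genes among the candidates, SEC10 was the only member. SEC5A stood at rank 103, whereas EXO70B1 had an SD/mean of 35.5%. EXO84B had an SD/mean of 3.90% at 26.4 TPM but fell below the level minimum, so it was no candidate.

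The vacuolar proton pump (V-ATPase), which acidifies the vacuole, gave 3 members out of 17 candidate genes caught by words in the product name. Those words may miss some of its subunits. AT3G42050, the gene of subunit H of its soluble sector, had a mean of 148 ± 2.99 TPM in stress and 142 ± 6.09 TPM in control libraries (SD, n = 9 each). AT3G28710, a subunit of the membrane sector, had 108 ± 4.13 TPM in stress and 106 ± 4.85 TPM in control libraries, and AT2G16510, of the proton-carrying ring, 114 ± 4.05 TPM in stress and 115 ± 6.38 TPM in control libraries (SD, n = 9 each). The stress and control ranges of each of these 3 genes overlapped on the TPM scale. On the scale of the edgeR tests (TMM, described below), their log2 changes at stress over all genotypes were -0.03, -0.07 and -0.10. The catalytic subunit gene VHA-A was no member. Its SD/mean was 10.8%, and its level was 285 ± 9.13 TPM in stress and 235 ± 14.1 TPM in control libraries (SD, n = 9 each), without overlap. At stress VHA-A rose in WT by 0.20 in log2 units (SE 0.07, edgeR quasi-likelihood test, adjusted p = 0.0448) and in ahl10-1 by 0.24 (SE 0.07, edgeR adjusted p = 0.0139), while in rrp6l1-2 the log2 change was 0.11 (SE 0.07, edgeR adjusted p = 0.237).

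Metabolic enzymes were the largest class with 26 members, but also had 1179 candidates. HEMG2, of the pathway to heme and chlorophyll, was the least abundant member and ranged from 28.8 to 31.8 TPM with a median of 29.9 TPM. MTHFR1, which makes the methyl-carrying folate used for methionine, ranged from 208 to 240 TPM with a median of 229 TPM, and its lowest value came from WT control 1. AT2G26800, an aldolase superfamily enzyme, ranged from 36.3 to 41.1 TPM. ACLA-1, which supplies cytosolic acetyl-CoA, and PDH-E1 BETA, of the plastid pyruvate dehydrogenase, had SD/mean values of 3.54% and 3.72%. GPAT9 and LPAT2, which add fatty acids to glycerol in lipid synthesis, had 4.16% and 3.87%. OASB, which makes cysteine in plastids, ranged from 126 to 145 TPM, with its 3 highest values in rrp6l1-2 control seedlings. A mean of 6.53% of its reads mapped to several places.

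Transcription and chromatin proteins gave 5 members of 225 candidates. AT1G72740, a homeodomain-like DNA-binding protein, ranged from 30.8 to 33.7 TPM, the narrowest range of all in ratio at 1.09 times. ILR3, a bHLH factor of iron homeostasis, had an SD/mean of 3.80%, and TPL, the TOPLESS co-repressor that the class words do not catch, 3.79%. AT1G54610, MPK20 and AT5G14720 were among 4 protein kinases of 127 candidates. The chaperone class gave AT1G21660, a DnaJ-domain protein, alone among 128 candidates. No member came from 428 candidates of the ribosome and translation, 147 of mitochondrial respiration or 71 of photosystems and light harvesting, whose best ranks were 250, 154 and 175. Several class counts depended on the scale. The 100 lowest loci on the TMM scale held 6 genes of the ribosome and translation, 2 of respiration, 2 of the proteasome and 12 metabolic enzymes. They held 0 of the vacuolar proton pump, the cytoskeleton, chaperones and photosystems, and 5 of RNA binding. Other classes moved little, with 5 genes of ubiquitin and ubiquitin-like conjugation, 7 of membrane traffic, 4 protein kinases and 5 of transcription and chromatin.

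The most abundant members were GAPC2, SAMDC, AT1G78040, ADF3 and AT4G40030. SAMDC, which starts polyamine synthesis, ranged from 563 to 659 TPM, but 100.0% of its reads, to the first decimal, mapped to several places and had been shared out by the authors' counting, so its level is uncertain. AT1G78040, a protein of the Ole e 1 family, ranged from 540 to 604 TPM with a median of 572 TPM. With the candidates, all above the level minimum of the rule, cut by mean level into 4 bins of like size, the lowest bin held 22 members and the others, going up, 32, 24 and 22. The least abundant after HEMG2 were AT5G04710 with 30.3 TPM, AT5G19390 with 30.8 TPM, AT1G30470 with 30.8 TPM and PUB13 with 31.2 TPM on average. The 100 genes had a median level of 53.9 TPM, against 56.8 TPM for the candidates.

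The members had longer and more divided gene models than the candidates. Their median was 9 exons and 1.66 kb, against 5 exons and 1.39 kb for the candidates. A single exon was annotated for 3.00% of the members and 11.1% of the candidates. Members and candidates overlapped another gene model in 35.0% and 32.2% of cases. How the counting treated strand is not stated in the labels or headers, and reads of overlapping genes cannot be told apart with certainty.

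**Figure D2:**
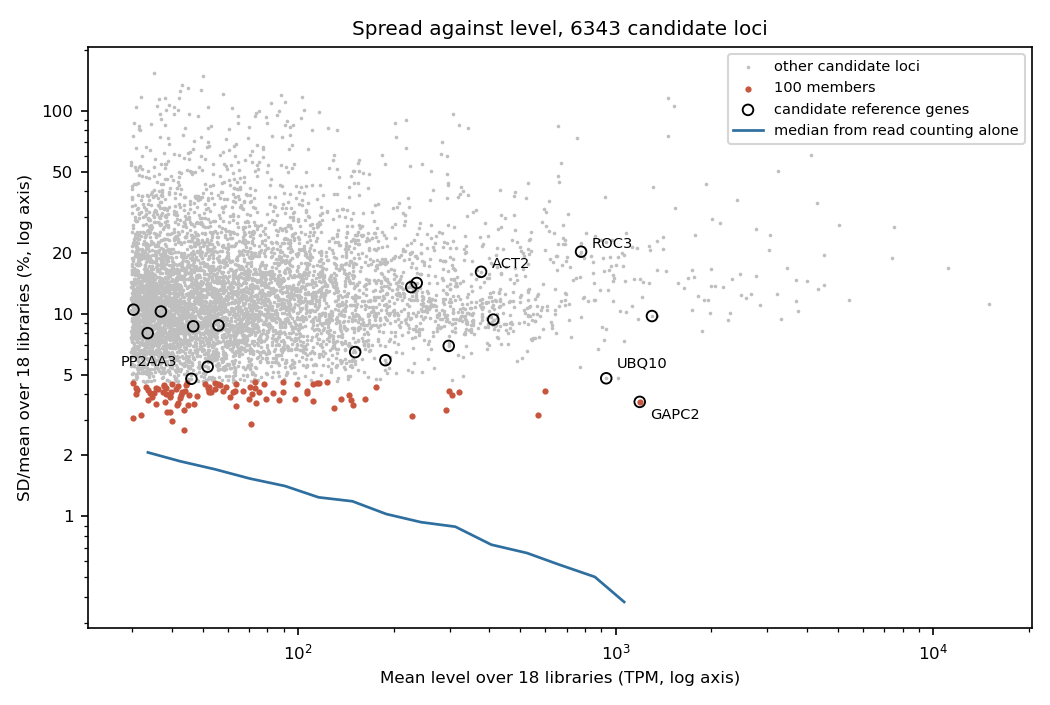
SD/mean over 18 libraries (percent, log axis) against mean level (TPM, log axis) for the 6343 candidates, with the 100 members in red, candidate reference genes as open circles and, as a line, the median SD/mean that read counting alone gives. The members lie below 4.62% at every level, and GAPC2 is the circle among them.

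Relatives of several members had a higher SD/mean on the TPM scale, which the rule used. These relatives were picked after their values were seen. Ranks and changes are also given on counts scaled by TMM, which centres the ratios of most genes between libraries and is the scale of the edgeR tests. On it the members were not flat, and the order within a family could differ. GAPC2 and GAPC1 encode the cytosolic GAPDH of glycolysis. GAPC2 (chromosome 1, 4608077 to 4610878, minus strand) had 1158, 1212 and 1153 TPM in ahl10-1 stress, and 1179, 1203 and 1113 TPM in ahl10-1 control seedlings. It had 1132, 1228 and 1217 TPM in rrp6l1-2 stress, and 1187, 1289 and 1242 TPM in rrp6l1-2 control seedlings. In WT it had 1182, 1220 and 1181 TPM at stress, and 1129, 1179 and 1211 TPM at control. Stress and control values overlapped in each genotype. Over the 9 stress and 9 control libraries, its log2 change was -0.01 on the TPM scale and -0.10 on the TMM scale. GAPC1 instead ranged from 567 to 676 TPM with a median of 628 TPM over the 9 stress libraries, and from 375 to 547 TPM with a median of 432 TPM over the 9 control libraries, with no overlap. On the TMM scale GAPC2 ranked 1214 and GAPC1 4582. GAPC1 rose at stress in WT (log2 change 0.39, SE 0.10, edgeR adjusted p = 0.00650), in ahl10-1 (0.51, SE 0.10, edgeR adjusted p = 0.000909) and in rrp6l1-2 (0.35, SE 0.10, edgeR adjusted p = 0.0136).

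Among actins, ACT3 was a member with a mean of 41.3 ± 1.32 TPM in stress and 41.3 ± 2.20 TPM in control libraries (SD, n = 9 each). ACT2, the most used actin in plant RT-qPCR, had 321 ± 13.5 TPM in stress and 432 ± 26.7 TPM in control libraries (SD, n = 9 each). At stress ACT2 fell in WT by 0.48 on the log2 scale (SE 0.09, edgeR adjusted p = 0.00120), by 0.53 in ahl10-1 (SE 0.09, edgeR adjusted p = 0.000497) and by 0.55 in rrp6l1-2 (SE 0.09, edgeR adjusted p = 0.000434). ACT8 and ACT7 had SD/mean values of 6.93% and 9.34% on the TPM scale. On the TMM scale, ACT3 had 6.40% and rank 1194, against 6.09% and rank 1036 for ACT7, which reversed their order, while ACT8 ranked 1813 and ACT2 5116. ADF3, which severs actin filaments, ranged from 297 to 350 TPM with an SD/mean of 4.11%, and of the 5 other ADF genes among the candidates ADF4 came nearest with 5.55%. On the TMM scale ADF3 ranked 1554, behind ADF2 at 261. MAP65-1 and FTSZ2-1, of the plastid division ring, completed the 4 cytoskeleton members of 58 candidates.

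RAN-1, a GTPase that drives transport through nuclear pores, had 292 ± 10.3 TPM in stress and 292 ± 9.79 TPM in control libraries (SD, n = 9 each), whereas its relative RAN3 had 186 ± 8.99 TPM in stress and 157 ± 11.4 TPM in control libraries. Over all genotypes, the log2 change of RAN-1 at stress was 0.00 on the TPM scale and -0.09 on the TMM scale, and that of RAN3 was 0.24 and 0.15. In the edgeR fit, RAN3 had log2 changes at stress of 0.15 in ahl10-1, 0.17 in rrp6l1-2 and 0.14 in WT, none past the threshold (edgeR adjusted p = 0.174, 0.127 and 0.234). NTF2B, which carries RAN into the nucleus, was a member at rank 24. RAN-1 in its 6 WT libraries ran from 294 to 311 TPM and in its 12 mutant libraries from 279 to 299 TPM.

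Of the 3 genes that encode the replacement histone H3.3, AT4G40030 was a member with 305 ± 8.46 TPM in stress and 306 ± 15.4 TPM in control libraries (SD, n = 9 each). AT4G40040 had 413 ± 12.9 TPM in stress and 344 ± 22.6 TPM in control libraries, and AT5G10980 had 283 ± 10.7 TPM in stress and 224 ± 13.4 TPM in control libraries. AT5G10980 rose at stress in WT (log2 change 0.22, SE 0.06, edgeR adjusted p = 0.0138), and in ahl10-1 and rrp6l1-2 by 0.26 each (SE 0.06, edgeR adjusted p = 0.00529 and 0.00556). Over all genotypes, the log2 change of AT4G40030 was -0.00 on the TPM scale and -0.10 on the TMM scale, where it ranked 975, AT4G40040 1804 and AT5G10980 2859. No read of AT4G40030 or GAPC2 was listed as mapping to several places. The 4 candidate genes of the replicative H3.1 had SD/mean values from 14.7% to 17.4%.

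**Figure D3:**
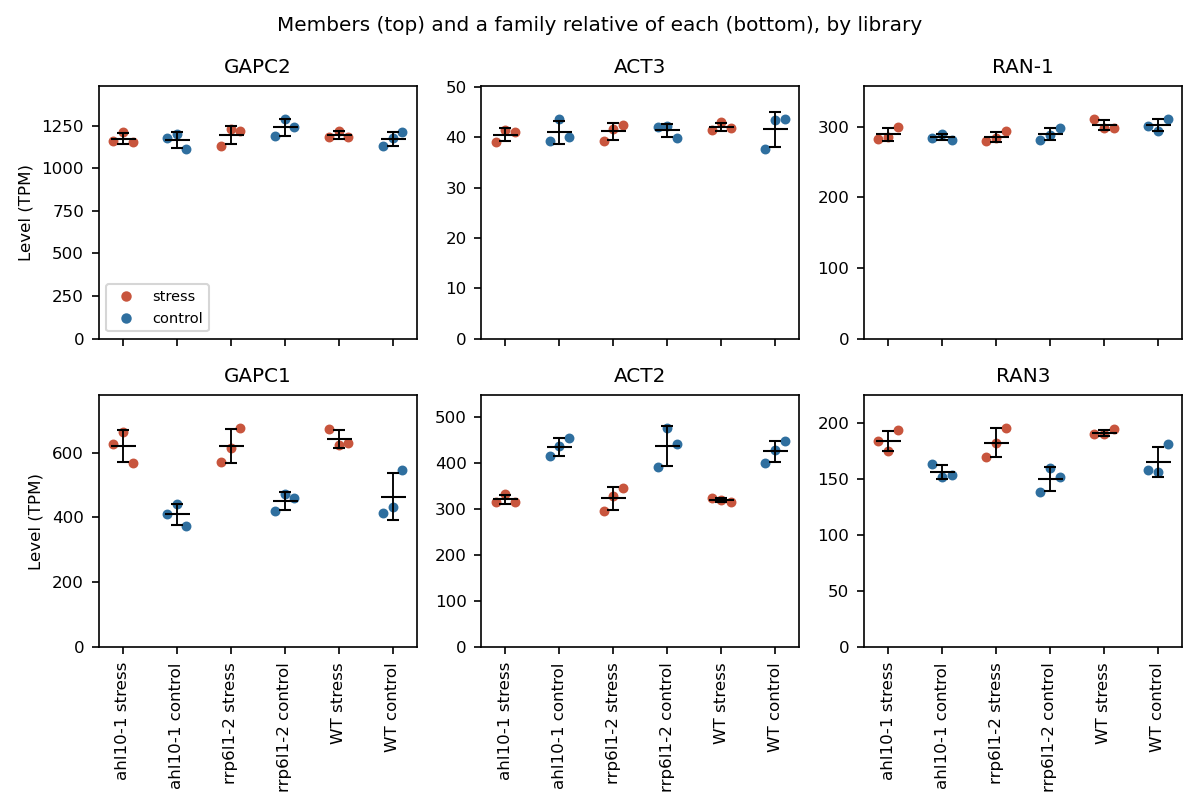
Level (TPM, axes from 0) in each library for the members GAPC2, ACT3 and RAN-1 (top) and the relatives GAPC1, ACT2 and RAN3 (bottom), stress in red and control in blue, with mean and SD of 3 libraries per group. On this scale GAPC2 stays between 1113 and 1289 TPM, while GAPC1 has a stress mean of 627 and a control mean of 441 TPM.

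Of 25 genes in wide use as references in Arabidopsis, 18 were candidates, 7 fell below the level minimum and GAPC2 alone was a member. PP2AA3, a protein phosphatase 2A subunit, came next at rank 141 with 4.77%, followed by the polyubiquitin gene UBQ10 at rank 146 with 4.80%. AT4G33380, YLS8 and UBC9 ranked 318, 450 and 649. The least even of the 18 candidates were ROC3 with an SD/mean of 20.2%, ACT2 with 16.1% and the tubulin gene TUB4 with 14.2%. Of the 18, 14 had a lower SD/mean than the median candidate.

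For the 23 reference genes that are not members and had enough reads, the stress response was tested in the fit over all genes. In WT, 5 of them changed (2 higher, 3 lower), in ahl10-1 6 (3 higher, 3 lower) and in rrp6l1-2 7 (4 higher, 3 lower), where edgeR called 26.1%, 30.1% and 29.5% of 22795 genes. ACT2, ROC3, TUB4 and AT2G32170 were called in all 3 genotypes. In WT, ROC3 rose at stress by 0.41 in log2 units (SE 0.10, edgeR adjusted p = 0.00624), and TUB4 fell by 0.40 (SE 0.07, edgeR adjusted p = 0.000937). PP2AA3 had log2 changes of 0.03 in ahl10-1, -0.04 in rrp6l1-2 and -0.02 in WT, with SE 0.05 each (edgeR adjusted p = 0.681, 0.598 and 0.861). None of the 23 passed the threshold in any comparison of a mutant with WT, where edgeR called 0.0351% of all genes for ahl10-1 and 0.0834% for rrp6l1-2 at stress, and 0.0263% and 0.211% at control.

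Of the parts of the design, members and candidates differed most in the treatment share. A median of 5.37% of a member's variance lay between stress and control libraries, against 40.1% for the candidates. The means were 12.1% for members and 41.4% for candidates, where equal spread over the degrees of freedom would give a mean of 5.88%. The genotype held a median of 9.70% for members and 8.84% for candidates. The replicate number held 12.6% and 9.21%, and what remained after genotype, treatment, their interaction and replicate number held 52.0% and 26.2%. The choice fixed the low total spread of the members. Among candidates, treatment held the largest median share of that total, so the choice favoured a low treatment share as well. Nothing is read from the difference in shares.

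The same rule was also applied to some of the libraries and its picks were measured in the others, on the TPM scale only. When 100 loci were chosen by the same rule in the 9 control libraries alone and then measured in the 9 stress libraries, their median SD/mean there was 4.14%, against 6.73% for the candidates, and 96.0% of them lay below the candidates' median. The change between their control and stress means had a median size of 0.10 on the log2 scale, against 0.19 for the candidates, and exceeded 1.2-fold for 13 of them, against 35.3% of the candidates. Chosen in the 9 stress libraries and measured in the 9 control libraries, 100 loci had a median SD/mean of 5.88%, against 9.55%, and 17 of them moved by more than 1.2-fold. Chosen in the 6 WT libraries and measured in the 12 mutant libraries, they had 5.56%, against 11.4%, and 0 of them moved by more than 1.2-fold, against 4.32% of the candidates. These 3 lists shared 33, 22 and 33 genes with the 100 members, so they describe mostly other genes, and nothing is read from them for the members. Each change also used the means of the libraries in which the loci were chosen.

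The scale decided which genes were the most even. The same rule on CPM, which is counts divided by library size, scaled by TMM gave a list of 100 that shared 6 genes with the members: AT1G76670, ILR3, GPAT9, AT3G50690, AT2G16860 and SOX. With DESeq2 size factors, 3 were shared, and with the deposited RPKM as they were, 82. On the TMM scale, AT4G26480 stood at rank 1345, ROPGEF1 at 899 and GAPC2 at 1214, and the median rank of the 100 genes was 941. Their median SD/mean was 5.92% on that scale, against 10.6% for the candidates. First on the TMM scale was CUL4, the scaffold of a ubiquitin ligase, with an SD/mean of 2.35%, which on the TPM scale had 5.32% and rank 263.

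The difference between the scales showed in the change at stress, and also between genotypes, as given below. On the TPM scale, the 100 genes had a median log2 change at stress of -0.00 in ahl10-1, 0.01 in rrp6l1-2 and -0.01 in WT, while the candidates had 0.08, 0.10 and 0.06. On the TMM scale, the 100 genes had -0.09, -0.10 and -0.08, while the candidates had -0.01, -0.01 and -0.02. TMM factors had a median of 1.03 in stress libraries (0.961 to 1.07) and 0.986 in control libraries (0.901 to 1.04), so the ranges overlapped. Within control, the factor was 0.901 in ahl10-1 control 3 and in rrp6l1-2 control 3, and 1.04 in WT control 3. In ahl10-1 control 3, 100 of the 100 genes lay above their own mean on the TMM scale and 30 on the TPM scale. Each scale sets its own zero, and the part of either in these shifts was not tested.

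**Figure D4:**
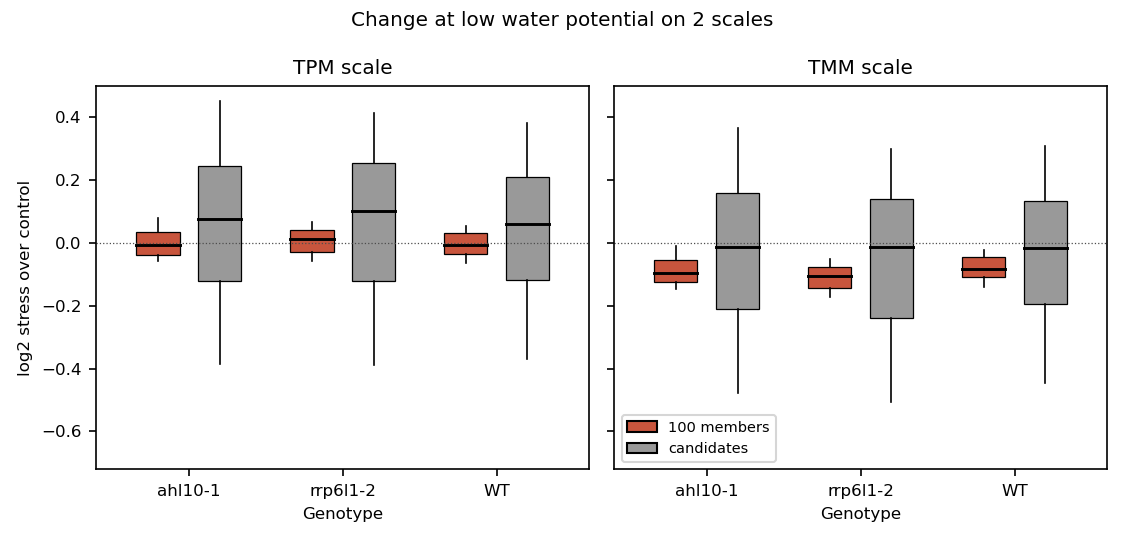
Change at low water potential (log2 stress over control, group means) of the 100 members and the 6343 candidates in each genotype on the TPM scale (left) and the TMM scale (right), as median line, quartile box and lines to the 10th and 90th percentiles. Members centre near 0 on the TPM scale and between -0.08 and -0.10 on the TMM scale.

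PP2AA3 and UBQ10 stood near the top on both scales, at ranks 141 and 146 on the TPM scale and 143 and 150 on the TMM scale. Neither was among the 100 lowest loci on either scale, and the 6 loci in both lists of 100 included 0 reference genes. Among the 150 lowest, a bound chosen after the ranks were seen and just wide enough for UBQ10, 22 loci were in both lists. PP2AA3 ranged from 42.3 to 50.1 TPM, with the lowest value in ahl10-1 control 3, and UBQ10 from 869 to 1020 TPM. The members that were low on both scales included AT1G76670, a nucleotide-sugar transporter, at ranks 19 and 50, and ILR3 at 30 and 45.

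Tested on counts with TMM, few members passed the threshold at stress, and all that did were lower. In ahl10-1, edgeR called 7 of the 100 genes, in rrp6l1-2 12 and in WT 4, beside 30.1%, 29.5% and 26.1% of all 22795 genes tested and 14.4%, 14.7% and 13.4% called lower. The rule used these libraries, so nothing is read from that difference. AT3G26935, a DHHC-type zinc finger protein, was called in all 3 genotypes and PUB13, AT5G14720, AT5G19390, AT4G18060 and AT1G78040 in 2. With library totals in place of TMM, 1 member was called in ahl10-1, 0 in rrp6l1-2 and 0 in WT, beside 28.6%, 31.7% and 24.6% of all genes. DESeq2 called 15, 27 and 6, beside 31.3%, 31.0% and 28.1%. With the replicate number as a block, which for ahl10-1 is the pairing the data show, 11 were called in ahl10-1, 20 in rrp6l1-2 and 6 in WT, beside 33.4%, 33.4% and 29.5%. Leaving out 1 library gave as few as 1 in ahl10-1 (without its stress 1) and 4 in rrp6l1-2 (without its control 1 or 3). It gave as few as 0 in WT (without its stress 1 or control 1) and as many as 18 in ahl10-1 (without its control 1). Calls over all genes are not given for those fits.

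The largest fitted changes were small. In WT, AT5G14720 had a log2 change at stress of -0.17 (SE 0.06, edgeR adjusted p = 0.0435) and AT3G26935 of -0.17 (SE 0.05, edgeR adjusted p = 0.0152). AT3G26935 had 32.7, 32.8 and 33.7 TPM in WT stress and 35.2, 34.6 and 36.1 TPM in WT control seedlings, which did not overlap. At the other end, SNF7.2, an ESCRT protein, had a log2 change in WT of 0.03 (SE 0.06, edgeR adjusted p = 0.708). LST8-1, a component of the TOR kinase complex, had 0.01 (SE 0.05, edgeR adjusted p = 0.891). SNF7.2 had 102, 103 and 99.3 TPM in WT stress and 91.9, 96.6 and 92.8 TPM in WT control seedlings. On the TPM scale its ranges thus stood apart as well, in the other direction from AT3G26935. With 3 libraries on each side, ranges can stand apart by chance. The most negative changes were those of AT5G19390 in ahl10-1 (-0.21, SE 0.06, edgeR adjusted p = 0.00911) and of AT5G04710 in rrp6l1-2 (-0.25, SE 0.06, edgeR adjusted p = 0.00445). AT5G04710 had 31.0, 28.1 and 28.5 TPM in rrp6l1-2 stress and 33.1, 32.8 and 30.1 TPM in rrp6l1-2 control seedlings, ranges that overlapped.

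Between genotypes, none of the 100 genes passed the threshold in any of the 4 comparisons with WT by edgeR, beside the 0.0263% to 0.211% given above. None passed in the tests of whether the stress response differed between a mutant and WT, which called 0.0% of all genes. For rrp6l1-2 against WT at control, the data show pairing by replicate number. With that number as a block, 0 members were called there, beside 148 of all genes. The edgeR values below are from the fit without the block. At an unadjusted p below 0.05, 2 members passed for ahl10-1 and 3 for rrp6l1-2 at stress, and 3 and 19 at control. Of all genes, 4.35% and 3.77% did at stress and 5.94% and 17.6% at control. DESeq2 called 6 members for rrp6l1-2 at control, beside 3.59% of all genes. In each other comparison of a mutant with WT it called 0 members. Of all genes it called 21 there for ahl10-1 at control, and 27 and 56 for ahl10-1 and rrp6l1-2 at stress. OASB had the largest change, 0.23 higher on the log2 scale in rrp6l1-2 than in WT at control (SE 0.07, edgeR adjusted p = 0.152). OASB had 144, 145 and 142 TPM in rrp6l1-2 control and 131, 136 and 126 TPM in WT control seedlings, with no overlap. Other extremes had smaller changes. In rrp6l1-2 at control AT5G32440 had -0.05, and at stress HINT 2 had 0.17 and NTF2B -0.04. In ahl10-1 at control AT5G19390 had 0.15 and AT5G11710 -0.03, and at stress AT1G21660 had 0.12 and AT3G58560 -0.03. In the tests of a difference in stress response, PD1 had the lowest value for ahl10-1 at -0.11 and AT2G31370 the highest at 0.10, while for rrp6l1-2 OASB had -0.18 and AT3G50690 0.08. The median log2 change of the 100 genes against WT at control was 0.06 in ahl10-1 and 0.07 in rrp6l1-2 with TMM, and -0.02 in each on the TPM scale, so its direction depended on the scaling. The same held at stress, with 0.05 in each mutant with TMM and -0.01 and -0.00 in ahl10-1 and rrp6l1-2 on the TPM scale.

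In the authors' deposited table for stress against control in WT, 1 of the 100 genes passed an adjusted p of 0.05, beside 26.8% of the genes with an adjusted p there. That gene was SAMDC, whose log2 change in the authors' deposited table was -0.32, whereas edgeR on the deposited counts gave -0.12 (SE 0.10, adjusted p = 0.408). In the authors' deposited tables of each mutant against WT, no member passed, beside 0.358% and 1.23% of genes for ahl10-1 and rrp6l1-2 at stress, and 0.0697% and 4.17% at control.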

How the data were processed

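Poly(A) RNA of 18 libraries was measured, and samples were grouped by their labels. The authors deposited, per library, expected counts per gene (fractional for 3.92% to 4.56% of the genes), RPKM and the fraction of reads mapping to several places, per the file headers. Tools named in the submitters' processing notes are Bowtie2, CASAVA, bcl2fastq 1.8.4 and DESeq2, and the build there is TAIR10. Which tool counted reads, and how it treated strand, is not given in the sources used here. The authors also deposited comparison tables with a mean count (a signal), log2 fold changes, a test score and p-values. Gene length in the files was used as given.

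Here, RPKM were rescaled to a sum of 1000000 per library. Rounded counts of 22795 genes (those passing edgeR's filterByExpr) entered 1 edgeR 4.0.16 quasi-likelihood fit (R 4.3.3, TMM, 6 group means, Benjamini-Hochberg over all genes, threshold 0.05). DESeq2 1.42.0, limma 3.58.1, other scalings, filters and left-out libraries were alternatives. The fit was tested on simulated data. Functional classes came from words in RefSeq product names, mended after the matches were seen. The members, lists and comparisons were chosen with earlier results of these data known. Genes named are ranks 1 to 10, the 5 highest and lowest in level, ranks 96 to 105, the extreme changes of each comparison, members among the reference genes with the 5 best and 3 worst others, and up to 3 members per class; others were chosen after their values were seen. Replicate numbers paired the libraries (all 3 correlations of deviations above 0.1) in 2 of 7 comparisons, stress against control in ahl10-1 and rrp6l1-2 against WT at control. No 2 libraries held identical values. Levels cover counting error only as far as depth goes, since PCR copies are not independent molecules. Gene names, exons and sequences are from TAIR10.1, which held 100 of the 100 members.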

Additional observations from a re-analysis of the deposited data

How the results depend on the processing

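The list shared 6 genes with the members on TMM CPM (list median SD/mean 3.36%), 3 with DESeq2 size factors (3.40%), 39 by median absolute deviation (2.18%), 31 at a minimum of 50 RPKM (4.95%), 33 in WT alone (2.62%), 22 in stress alone (2.52%) and 33 in control alone (3.30%). It shared 70 at a minimum of 10 RPKM and 82 on the deposited RPKM. Leaving out libraries, singly or a replicate number at a time, left 55 to 94 shared, with medians of 3.22% to 4.17%. The lowest, 55, came without replicate 3 of all groups. The reference gene in the list, 1 by the rule, was 0 on TMM CPM.

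Of 22795 genes, the main fit called 6861 at stress in ahl10-1, 6733 in rrp6l1-2 and 5941 in WT. Members among them numbered 7, 12 and 4. At an adjusted p of 0.01, members called were 1, 3 and 0, beside 4161, 3734 and 3415 genes in all. Library totals gave 1, 0 and 0, beside 6525, 7235 and 5616 genes in all. That scaling moved the median log2 change of all genes in rrp6l1-2 to 0.13 from 0.02. Upper-quartile factors gave 4, 3 and 1, beside 6888, 7052 and 6222 genes in all. DESeq2 gave 15, 27 and 6, and 6 for rrp6l1-2 against WT at control in place of 0. limma on log2(RPKM + 0.5) and on log2(RPKM + 0.1) each gave 1, 1 and 0. All genes called numbered 6472, 7298 and 5675 with the first, and 6556, 7352 and 5638 with the second. With only the groups compared, 0, 9 and 0 members were called, beside 4985, 5980 and 5391 genes in all. Without the low-count filter, 2 members were called in WT, beside 5563 genes in all. The replicate block gave 11, 20 and 6, and 0 in every other comparison. Leaving out 1 library gave 1 to 18 in ahl10-1: 1, 3 and 14 without stress 1, 2 and 3, and 18 and 2 without control 1 and 3. It gave 4 to 18 in rrp6l1-2: 7 and 6 without stress 1 and 2, and 4, 18 and 4 without control 1, 2 and 3. It gave 0 to 5 in WT: 0, 2 and 2 without stress 1, 2 and 3, and 0, 1 and 5 without control 1, 2 and 3. In every comparison of a mutant with WT it gave 0. For fits with 1 library left out, calls over all genes are not given, and nothing is read from the member counts. The cause of these moves was not tested.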
